A study of Mus musculus with 6 samples.

Results

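The lysyl oxidases are the copper enzymes that start the crosslinking of collagen and elastin fibres, and they were followed here in RNA-seq libraries of cultured cardiac fibroblasts (CFs). All genes whose symbol was *Lox*, *Loxl1*, *Loxl2*, *Loxl3* or *Loxl4* were taken, which gave 5 of the 19446 genes of the expression table. The libraries came from 5-week-old C57BL/6J mice of 2 genotypes with 3 libraries each. One genotype was wild type (WT), and in the other, CharmeKO, a polyadenylation signal had been inserted into the gene of *Charme*, a long non-coding RNA of heart and skeletal muscle. Both genotypes were grown in the same way, as cells that grew out of atrial tissue pieces of littermates. The cells were kept on fibronectin with fetal bovine serum, without TGF-β1. For such cultures the methods give a range of ages around the 5 weeks of the titles. A library may therefore stand for a culture from several animals, as the labels do not say how many went into it. It stands for atrial CFs selected by their outgrowth. The labels do not say what separates the 3 libraries of a genotype, so p-values measure only the spread between these libraries.

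The lysyl oxidases are secreted amine oxidases that turn the ε-amino group of lysine and hydroxylysine into an aldehyde, which then condenses with neighbouring side chains into covalent crosslinks. LOX and LOXL1 are made as proenzymes and cut outside the cell, whereas LOXL2, LOXL3 and LOXL4 carry scavenger receptor cysteine-rich domains in front of the catalytic domain. In the heart the crosslinks set the stiffness and the resistance to digestion of the collagen network, and fibroblasts are the main source of these enzymes.

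The members share a catalytic domain that holds copper through closely spaced histidines. The coding sequence of this site is shown because it carries the residues that the members have in common, and because it shows which of them are closest to each other. It was read from the main transcript of each gene in the GENCODE M21 annotation (GRCm38) and runs 5′ to 3′ over 33 bases, with the codons of the copper-binding histidines in capitals. The sequence of *Lox* is not shown.
Loxl1: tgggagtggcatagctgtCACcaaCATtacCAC
Loxl2: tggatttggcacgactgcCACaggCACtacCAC
Loxl3: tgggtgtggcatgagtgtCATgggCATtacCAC
Loxl4: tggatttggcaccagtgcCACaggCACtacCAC

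In all 5 genes the site was split over an exon junction with 23 bases in the upstream exon. It lay in exons 3 and 4 of 7 in *Loxl1* (chr9:58293720-58294381, minus strand), in exons 10 and 11 of 14 in *Loxl2* (chr14:69682316-69689037, plus strand), in exons 10 and 11 of 14 in *Loxl3* (chr6:83049995-83050125, plus strand) and in exons 11 and 12 of 15 in *Loxl4* (chr19:42598807-42599899, minus strand). *Lox* carried it in exons 3 and 4 of 7, as *Loxl1* did. The members fell into closely matching pairs at this site. *Lox* and *Loxl1* had 32 of 33 bases in common, *Loxl2* and *Loxl4* had 31, and every other pairing had 21 to 25. Outside such stretches the transcripts were distinct. Of the 25-base words in a member's exons, 0.0431% (*Loxl3*) to 0.428% (*Loxl1*) also occurred in another member, and of the 50-base words 0 did. An exact match over 50 bases therefore belongs to a single member.

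All 5 genes were well covered, with at least 685 reads for *Loxl4* in its lowest library, and *Lox* was the leading member in every library. *Charme*, the targeted locus, was covered by 5, 15 and 11 reads in WT (libraries 1 to 3) against 0, 6 and 3 in CharmeKO, out of 38330019 to 46797446 reads per library. These are few reads in both genotypes, so the locus is only a weak check of the labels, and 0 reads allow up to 3. The 10 fibroblast marker genes summed to 15707 to 25257 CPM (reads scaled to a common library total). *Col1a1* made up most of that sum in every library, so the sum does not set fibroblasts apart from other stromal cells. *Tcf21* went from 199 to 1764 normalised reads and *Thy1* from 2658 to 29470. Cardiomyocyte markers summed to 3.22 to 18.5 CPM and endothelial markers to 1.00 to 8.14 CPM. *Myh6*, *Myh7*, *Actc1*, *Myl7* and *Nppa*, the defining cardiomyocyte genes of that list, were absent from the table. Haematopoietic markers summed to 24.9 to 393 CPM and mesothelial markers to 21.2 to 242 CPM.

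The 8 smooth muscle and myofibroblast markers (among them *Acta2*, *Tagln* and *Myh11*) were summed as well, since their level varied widely between libraries. They reached 3331, 719 and 5835 CPM in WT libraries 1 to 3 and 3132, 261 and 760 CPM in CharmeKO libraries 1 to 3. Number 1 was nearly equal in both genotypes, and 7 of the 8 genes overlapped between them. The log2 fold changes of these markers had a median of -1.73, and 6 of the 8 were lower in CharmeKO in every same-numbered pair, which held for 14.0% of all genes. Limma called 0 of the 8, against 0.0% of all genes. DESeq2 with library number as a block called *Myh11* and *Actg2*, against 0.401% of all genes. The study had itself picked *Myh11* from its RNA-seq of cultured CFs for real-time PCR, so its direction is not independent evidence. The 7 pericyte markers had a median of -1.29 and summed to 602 to 802 CPM in WT and 597 to 747 CPM in CharmeKO. Most of this sum was *Pdgfrb*, with a log2 fold change of 0.05, so the sum says little about the other markers. Of the 7, 6 had a log2 fold change below 0 and 4 were lower in CharmeKO in every pair. *Cspg4* alone did not overlap between genotypes (log2 fold change -3.56, SE 1.05), against 4.11% of all genes. Limma called 0 of the 7. The part of these cells or of this state in the values of the lysyl oxidases was not tested. In bulk cultures fewer cells of a type and less RNA per cell cannot be told apart.

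Levels of different genes were compared as size-factor-normalised reads per kilobase of exon. On this scale the order *Lox*, *Loxl1*, *Loxl2*, *Loxl3*, *Loxl4* was found in 6 of 6 libraries. *Lox* stood at 32837 ± 10289 normalised reads per kilobase in WT and 25593 ± 14440 in CharmeKO (SD, n = 3), and it ranked 34th of 15908 genes by its mean over all libraries. *Loxl1* followed at 6578 ± 1096 and 6660 ± 664, and ranked 210th. *Loxl2* reached 2567 ± 1115 and 2638 ± 2182, with rank 655.

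The remaining members were lower. *Loxl3* had 1373 ± 666 normalised reads per kilobase in WT and 865 ± 167 in CharmeKO (rank 1676), and *Loxl4* had 501 ± 125 and 306 ± 128 (rank 4403). Within a library *Lox* was 2.04 to 7.81 times as high as *Loxl1*, *Loxl1* 1.25 to 9.93 times as high as *Loxl2*, and *Loxl3* 2.10 to 4.34 times as high as *Loxl4*. The ranges of these neighbours over the 6 libraries did not overlap. *Loxl2* and *Loxl3* were the exception: their ratio within a library went from 1.08 to 5.76, and their ranges over the libraries overlapped.

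*Lox* alone supplied 60.9% to 82.0% of the summed level per kilobase of the family, with a median of 70.3%. *Loxl1* supplied 10.5% to 30.7%, *Loxl2* 3.09% to 15.7%, *Loxl3* 1.98% to 4.77% and *Loxl4* 0.661% to 1.28%. The mean share of *Lox* was 74.2% ± 7.28 in WT and 68.2% ± 11.2 in CharmeKO, a difference smaller than the spread between libraries. Within pairs it went from 82.0% in WT to 81.1% in CharmeKO, from 72.9% to 62.7% and from 67.6% to 60.9%, lower in 3 of 3 pairs. The share of *Loxl1* went from 10.5% to 12.1%, from 18.7% to 30.7% and from 17.7% to 19.6%, higher in 3 of 3 pairs. With 3 pairs these changes are a description. Library number 1 had the highest share of *Lox* in both genotypes. Together the 5 genes took 0.268% to 0.589% of all reads of a library.

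**Figure D1:**
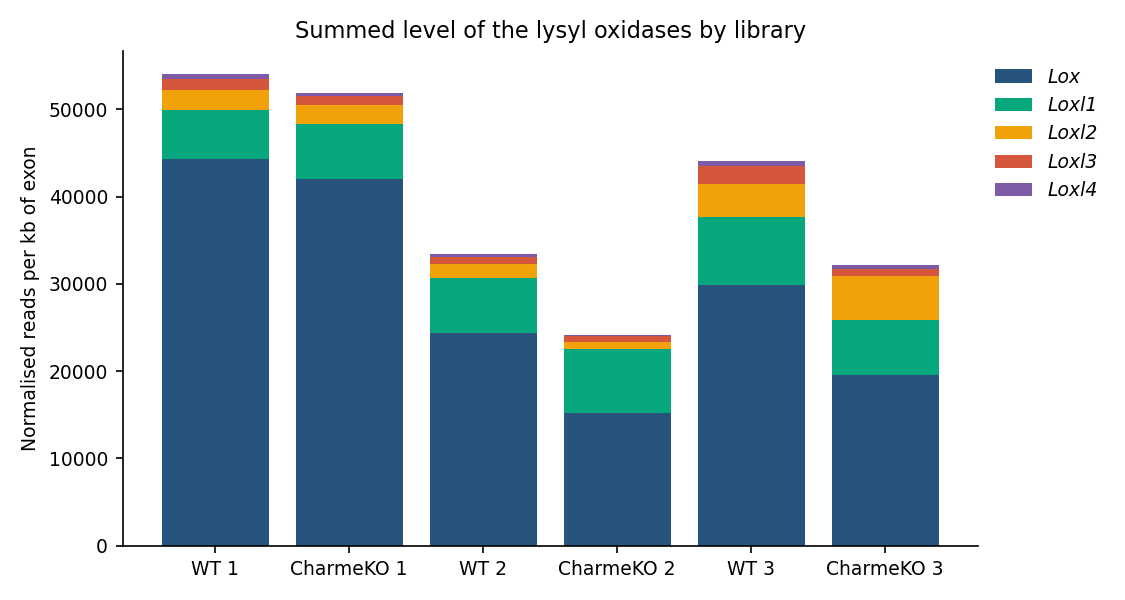
Stacked bars give the summed level of the lysyl oxidases in each of the 6 libraries, in normalised reads per kilobase of exon, with 1 colour per gene and same-numbered libraries side by side. *Lox* made up 60.9% to 82.0% of each bar, and each CharmeKO bar was shorter than the WT bar of the same number.

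The summed level of the family on the log2 scale was 15.39 ± 0.35 in WT and 15.07 ± 0.56 in CharmeKO (SD, n = 3). The difference of -0.33 was within the spread between libraries. Within same-numbered pairs it was -0.06, -0.47 and -0.46, so that CharmeKO was lower in 3 of 3 pairs. Leaving out single libraries moved it from -0.63 (without CharmeKO 1) to -0.08 (without CharmeKO 2).

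The genotypes were then compared gene by gene, to ask whether the loss of *Charme* went with a change in crosslinking enzymes. None of the lysyl oxidases passed the test. The main test was limma on log2(normalised reads + 1) with genotype as its only term, run over 15948 genes (minimum of 10 reads in 2 libraries), all 5 members included. It called 0 of 5 members at an adjusted p (Benjamini-Hochberg) of 0.05, where 0.0% of all genes tested were called, and each member had a limma adjusted p of 0.9999. At an unadjusted p of 0.05 limma called 0 of 5 members against 0.897% (143) of all genes. edgeR called 0 members and 0 genes at the adjusted threshold (158 genes at an unadjusted p of 0.05), and DESeq2 called 0 members against 0.0502% (8) of all genes.

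Lower values in CharmeKO were nevertheless common in the family. The limma log2 fold change (CharmeKO minus WT) was below 0 for 4 of 5 members, against 49.6% of all genes. Its median was -0.46 over the members and 0.0022 over all genes. Of the 4, *Loxl2* was above 0 with genotype as the only term in edgeR (0.05) and DESeq2 (0.04). *Lox*, *Loxl3* and *Loxl4* were lower in CharmeKO in all 3 same-numbered pairs, which held for 14.0% of all genes. In 0 of 5 members did the values of the genotypes separate without overlap, against 4.11% of all genes (1.98% with CharmeKO below WT and 2.14% with CharmeKO above it). With 5 members measured in the same libraries, these counts describe the family and test nothing.

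Same-numbered WT and CharmeKO libraries deviated together from their genotype means (r across genes of 0.762, 0.514 and 0.217 for numbers 1 to 3). The numbers were taken to pair the libraries, although the labels do not say what they share and the third pair is the weakest. WT 2 and CharmeKO 3, which differ in number, had an r of 0.222, slightly above that of the third pair. All other combinations of different number had a negative r. Deviations from a genotype mean sum to 0 for each gene, so a positive r in some combinations forces negative ones elsewhere. The negative r are therefore no separate evidence for the pairing. The correlations thus do not set the third pair apart, and results by pair or with the block rest on this choice. The replicate number took 41.0% (*Loxl1*) to 84.2% (*Loxl2*) of the variance of a member's log2 level, and genotype took 0.688% (*Loxl1*) to 40.6% (*Loxl4*). These shares are not corrected for the number of levels. The replicate number has more levels than genotype and is expected to take the larger share even without an effect. The median over all genes was 73.8% for the number and 5.91% for genotype. A fit with the number as a block was therefore made beside the main one.

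**Figure D2:**
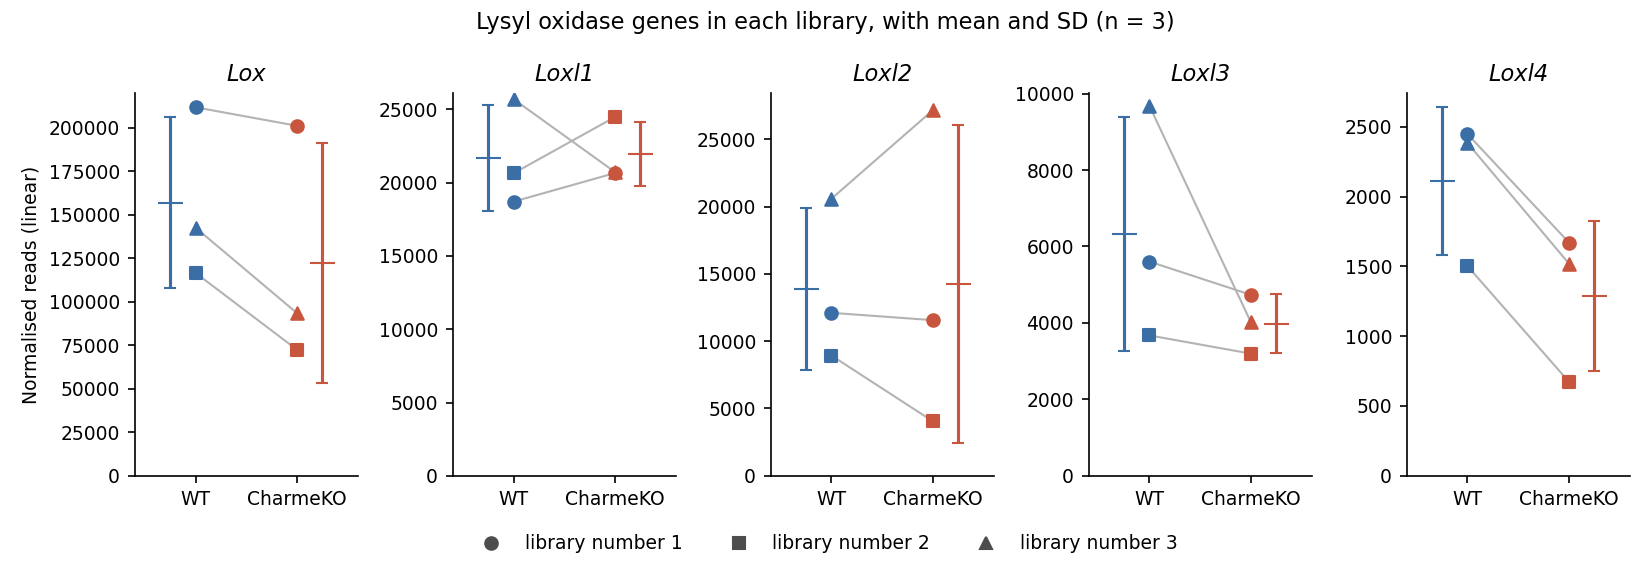
Points show the normalised reads (linear axis, starting at 0, with its own scale per gene) of each lysyl oxidase in each library, joined by replicate number, with the mean and SD of the 3 libraries of a genotype beside them. *Lox*, *Loxl3* and *Loxl4* were lower in CharmeKO along all 3 lines, whereas the lines of *Loxl1* and *Loxl2* went in both directions.

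*Lox* (ENSMUSG00000024529, chr18:52516067-52529867, minus strand, GRCm38) encodes the founding enzyme of the family, which acts on fibrillar collagens and elastin and is activated when BMP1-type proteinases remove its propeptide. It had 211645, 116534 and 142511 normalised reads in WT libraries 1 to 3 and 201016, 72392 and 93438 in CharmeKO libraries 1 to 3. Number 1 was the highest and number 2 the lowest in both genotypes, and the genotypes overlapped over most of their range. CharmeKO stood at 94.98%, 62.1% and 65.6% of WT in the 3 pairs. The log2 fold change was -0.46 with an SE of 0.50 and a 95% interval from -1.67 to 0.75, which holds CharmeKO levels of 0.315 to 1.68 times those of WT. With the replicate block the SE was 0.23 and the limma adjusted p 0.7997. Without CharmeKO 2 the log2 fold change was -0.15, and without CharmeKO 1 it was -0.89.

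*Loxl1* (ENSMUSG00000032334, chr9:58287738-58313186, minus strand, GRCm38) encodes the enzyme tied to elastic fibre upkeep, which is brought to elastin by fibulin-5. Its normalised reads were 18709, 20645 and 25709 in WT and 20661, 24486 and 20731 in CharmeKO. All 6 libraries lay close together, with a 1.37-fold range in WT and a 1.19-fold range in CharmeKO, and the genotypes overlapped. The means were 21688 ± 3615 and 21959 ± 2188 (SD, n = 3). Between genotypes the log2 fold change of 0.03 (SE 0.21) had a 95% interval from -0.47 to 0.53, and was 0.14, 0.25 and -0.31 in the 3 pairs. *Loxl1* was thus the member with the narrowest interval, which still allowed CharmeKO levels of 0.720 to 1.44 times those of WT. Its sign turned when WT 1 (-0.07), WT 2 (-0.0028) or CharmeKO 2 (-0.05) was left out.

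*Loxl2* (ENSMUSG00000034205, chr14:69609068-69695834, plus strand, GRCm38) encodes an oxidase with scavenger receptor domains that crosslinks type IV collagen of basement membranes and is known from fibrotic hearts. Its normalised reads were 12105, 8930 and 20584 in WT and 11560, 4044 and 27166 in CharmeKO. The lowest and the highest of the 6 libraries were both CharmeKO libraries, so that the WT values lay inside the CharmeKO range. *Loxl2* spread 6.72-fold within CharmeKO and 2.31-fold within WT, the widest range of any member within CharmeKO. On the log2 scale the fold change was -0.27 (SE 0.69) with a 95% interval from -1.93 to 1.40, and the pairs gave -0.07, -1.14 and 0.40. It turned to 0.06 without WT 3 and to 0.44 without CharmeKO 2, and the count models put it at 0.05 (edgeR) and 0.04 (DESeq2).

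*Loxl3* (ENSMUSG00000000693, chr6:83034173-83052562, plus strand, GRCm38) encodes an oxidase required for the collagen of palate and spine. It had 5605, 3673 and 9680 normalised reads in WT and 4735, 3196 and 4016 in CharmeKO. The highest value was WT 3 and the lowest CharmeKO 2, and the other CharmeKO libraries lay between the other WT libraries. CharmeKO differed from WT by a log2 fold change of -0.57 with an SE of 0.37 and a 95% interval from -1.45 to 0.31. It was -0.24, -0.20 and -1.27 in the 3 pairs, and it was -0.21 without WT 3 and -0.91 without WT 2. With the replicate block the limma adjusted p was 0.7997 and that of DESeq2 0.742.

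*Loxl4* (ENSMUSG00000025185, chr19:42593982-42612813, minus strand, GRCm38) encodes the remaining oxidase with scavenger receptor domains, and it had the largest fold change of the family. Its normalised reads were 2448, 1502 and 2384 in WT and 1671, 673 and 1520 in CharmeKO. Number 2 was the lowest library of both genotypes, and only WT 2 fell within the CharmeKO range. In CharmeKO *Loxl4* stood at 68.3%, 44.9% and 63.8% of WT in the 3 pairs. The log2 fold change was -0.79 (SE 0.39, 95% interval from -1.73 to 0.16), and it was -0.37 without CharmeKO 2 and -1.03 without CharmeKO 1.

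The call of *Loxl4* depended on the model. With the replicate block the log2 fold change kept its size, its SE was 0.15 and its 95% interval ran from -1.19 to -0.38, but the limma adjusted p was 0.7997 and that of edgeR 0.839. DESeq2 with the block called *Loxl4* lower in CharmeKO at an adjusted p of 0.0446 (log2 fold change -0.79, SE 0.21). It was the only member that DESeq2 with the block called, against 0.401% of all genes (64, of which 38 lower, or 0.238%). At an unadjusted p of 0.05 the limma fit with the block called 1 of 5 members, again *Loxl4*, against 5.37% of all genes (3.23% lower in CharmeKO), and edgeR with the block also called *Loxl4* alone, against 4.82%. DESeq2 with the block had 3 of 5 members, *Lox*, *Loxl3* and *Loxl4*, under that unadjusted p, all lower in CharmeKO, against 5.59% of all genes (3.72% lower in CharmeKO). The DESeq2 call was lost whichever pair was left out, with adjusted p of 0.281, 0.9999 and 0.0865 without pairs 1, 2 and 3, while the log2 fold change stayed between -0.91 and -0.59.

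**Figure D3:**
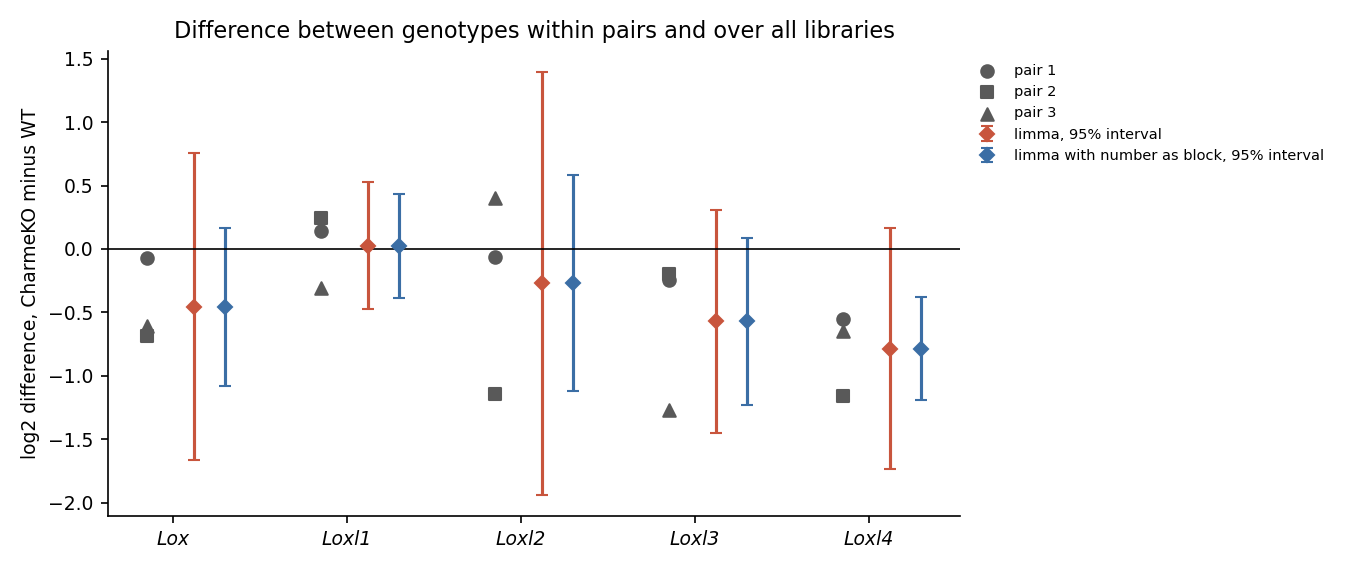
The log2 difference between CharmeKO and WT is plotted for each lysyl oxidase, as points for the 3 same-numbered pairs and as estimates with 95% intervals for limma without and with the replicate number as a block. Without the block all 5 intervals include 0, and with it the interval of *Loxl4*, from -1.19 to -0.38, does not. The intervals are not adjusted for the number of genes tested. With the block 5.37% of all genes had an unadjusted limma p under 0.05, and the limma adjusted p of *Loxl4* was 0.7997.

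Few annotated genes overlap the members. Reads had been counted by strand, so the gene that overlaps *Lox* on the opposite strand, the 2 that overlap *Loxl2*, and *Htra2*, whose 3′ end overlaps *Loxl3* over 1297 bases, should not have added reads. A microRNA gene overlaps *Loxl2* (*Mir6950*) and *Loxl3* (*Mir7040*) on the same strand. Whether it covers an exon of either gene was not examined, so it is not known whether reads were lost to the count there. *Loxl1* and *Loxl4* overlap no annotated gene.

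The enzymes were next set against a substrate each, as the log2 ratio of normalised reads within a library. Only differences of a ratio between libraries were read, since its height depends on the length of both genes. The 3 ratios were compared with a two-sided exact permutation test over libraries, which cannot give a p under 0.1, and with an exact test over the signs of the 3 pairs, which cannot go under 0.25. Adjustment (Benjamini-Hochberg) was over the 3 ratios.

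*Col1a1* encodes the α1 chain of type I collagen, the main fibrillar collagen of the heart. It had 394739, 818672 and 598199 normalised reads in WT and 570333, 770463 and 614566 in CharmeKO. The genotypes overlapped, and the log2 fold change was 0.16 (SE 0.65, limma adjusted p = 0.9999). The study reported reduced *Col1a1* in cultured CharmeKO CFs by real-time qPCR, which is the opposite direction by a different method. The log2 ratio of *Lox* to *Col1a1* was -0.90, -2.81 and -2.07 in WT and -1.50, -3.41 and -2.72 in CharmeKO. The genotypes overlapped because numbers 1 to 3 differed by more than the genotypes did, and every CharmeKO library was below the WT library of its number.

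Within pairs the drop was nearly even. The CharmeKO ratio was 65.7%, 66.0% and 63.8% of that of WT, a mean log2 difference of -0.62 with an SD of 0.03 over the pairs. The genes behind it differed by pair. In pair 1 *Col1a1* was higher in CharmeKO (log2 difference 0.53) and *Lox* nearly equal (-0.07). In pairs 2 and 3 *Lox* was lower (-0.69 and -0.61) and *Col1a1* nearly equal (-0.09 and 0.04). The test over libraries gave an exact permutation p of 0.5 (adjusted 0.75), and that over pairs gave its smallest exact value, 0.25 (adjusted 0.375). Without WT 1 the difference between genotype means was -0.10, and without CharmeKO 1 it was -1.14, since the unpaired means then compare different numbers.

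*Eln* encodes elastin, the substrate of LOXL1. It had 2879, 245 and 776 normalised reads in WT and 1562, 61.9 and 130 in CharmeKO. The log2 fold change was -1.80 (SE 1.37), and DESeq2 with the block called it lower at an adjusted p of 0.00103. The study followed *Eln* itself, so its direction is not independent evidence. The log2 ratio of *Loxl1* to *Eln* was 2.70, 6.39 and 5.05 in WT and 3.72, 8.60 and 7.30 in CharmeKO. Each CharmeKO library was above the WT library of its number, and the genotypes overlapped.

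The pair differences of this ratio were 1.02, 2.21 and 2.25, so CharmeKO had 203%, 463% and 476% of the WT ratio. Neither exact test could or did pass, with a permutation p of 0.4 over libraries (adjusted 0.75) and 0.25 over pairs (adjusted 0.375). The difference between genotype means, 1.83, was 0.80 without CharmeKO 2 and 3.24 without CharmeKO 1. Nearly all of it came from *Eln*, as *Loxl1* differed by only 0.03 on the log2 scale.

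*Col4a1* encodes a chain of type IV collagen, which LOXL2 crosslinks. The log2 ratio of *Loxl2* to *Col4a1* was -3.87, -4.03 and -3.12 in WT and -4.05, -4.62 and -2.32 in CharmeKO. Number 3 was the highest in both genotypes, and the pairs differed in sign (-0.19, -0.59 and 0.80). The mean difference was 0.0089 with an exact permutation p of 1.0, and it was -0.66 without CharmeKO 3.

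The genes around the lysyl oxidases were described in 6 lists. Limma called 0 genes in each list at the adjusted threshold. DESeq2 with the block called *Eln* alone among them, against 0.401% of all genes. Of the 11 collagen and elastin substrates tested, 7 had a log2 fold change below 0 and the median was -0.28, against 0.0022 over all genes. *Col11a1*, a minor chain that sets fibril width, was the 1 gene of the 75 tested in the 6 lists under an unadjusted limma p of 0.05, a share near the 0.897% of all genes. It had 3472, 6384 and 8640 normalised reads in WT and 4347, 2614 and 2193 in CharmeKO, and the log2 fold change was -0.98 (SE 0.40, limma adjusted p = 0.9999). The genotypes overlapped through number 1, in which CharmeKO was the higher library. *Col5a1*, which starts fibril assembly, had a log2 fold change of -0.49 (SE 0.37).

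The 15 tested genes of LOX maturation and its matrix partners had a median of -0.04, with 8 below 0. *Bmp1*, the proteinase that activates proLOX, had 13236, 15404 and 16643 normalised reads in WT and 13491, 16752 and 23936 in CharmeKO. Its log2 fold change was 0.22 (SE 0.26), and CharmeKO was the higher library in 3 of 3 pairs, which held for 16.4% of all genes. Its relative *Tll1* gave the lowest p of the list, with -1.46 (SE 0.78). *Fn1*, the fibronectin scaffold on which LOX is cleaved, had -0.64 (SE 0.59). *Postn*, the periostin that brings BMP1 to its sites, had -1.17 (SE 0.99).

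Scaffolds of elastic fibres differed in sign. *Fbln5*, the fibulin that binds LOXL1, had 12860, 10282 and 13034 normalised reads in WT and 12309, 7355 and 3993 in CharmeKO (log2 fold change -0.75, SE 0.40). CharmeKO was lower in 3 of 3 pairs and CharmeKO 1 lay within the WT range. *Fbn1*, the main fibrillin, had -0.72 (SE 0.56), and *Efemp2*, the fibulin that brings LOX to elastin, had 0.22 (SE 0.24).

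Copper reaches the lysyl oxidases through the secretory pathway. The 9 copper supply genes had a median of 0.10, with 4 below 0. *Ccs*, the copper chaperone of superoxide dismutase, was the 1 gene of the 75 whose genotypes did not overlap, a share under the 4.11% of all genes. It had 905, 931 and 954 normalised reads in WT and 1084, 1183 and 1133 in CharmeKO (log2 fold change 0.28, SE 0.15). *Atp7a*, the pump that loads copper onto the secreted enzymes, had 1527, 1947 and 1770 in WT and 1009, 1877 and 1642 in CharmeKO. It was lower in CharmeKO in 3 of 3 pairs (log2 fold change -0.25, SE 0.26). *Slc31a1*, the copper importer, had -0.26 (SE 0.24).

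The genes that prepare lysine and the collagen chain ahead of crosslinking stayed close to 0 as a list. The 15 genes had a median of 0.0038 with 7 below 0. *Plod2*, the telopeptide lysyl hydroxylase that decides the type of crosslink, had 25675, 25988 and 19815 normalised reads in WT and 23509, 13657 and 31394 in CharmeKO (log2 fold change -0.13, SE 0.34). Its CharmeKO values enclosed those of WT. The lowest p of the list belonged to *P4ha2* (-0.40, SE 0.36), *Crtap* (0.26, SE 0.24) and *P4hb* (0.28, SE 0.26), which serve proline hydroxylation.

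Other crosslinking enzymes and copper amine oxidases, with 6 genes tested, had a median of -0.16. *Tgm2*, the transglutaminase that crosslinks fibronectin and collagen, had 12156, 18073 and 24247 normalised reads in WT and 9852, 12091 and 19066 in CharmeKO. It was lower in CharmeKO in 3 of 3 pairs (-0.30, -0.58 and -0.35), and its log2 fold change was -0.41 with an SE of 0.35. With the replicate block its limma adjusted p was 0.7997. *Pxdn*, which forms sulfilimine bonds in type IV collagen, had -0.28 (SE 0.23).

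The 19 genes listed as possible inducers of the lysyl oxidases, among them TGF-β ligands and receptors, had a median of -0.25. Whether each of them acts on lysyl oxidase transcription was not tested. Of these 16 were below 0 and 6 were lower in CharmeKO in all 3 pairs, against 49.6% and 14.0% of all genes. The lowest p belonged to *Snai1* (-0.36, SE 0.18), a repressor of epithelial genes, to *Wwtr1* (-0.29, SE 0.17), the TAZ coactivator, and to *Srf* (-0.31, SE 0.21), the serum response factor. *Tgfb1*, the classical inducer of LOX in fibroblasts, had 0.18 (SE 0.34), and *Hif1a*, the hypoxia factor, had -0.29 (SE 0.34). None of them passed the limma test at the adjusted threshold.

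**Figure D4:**
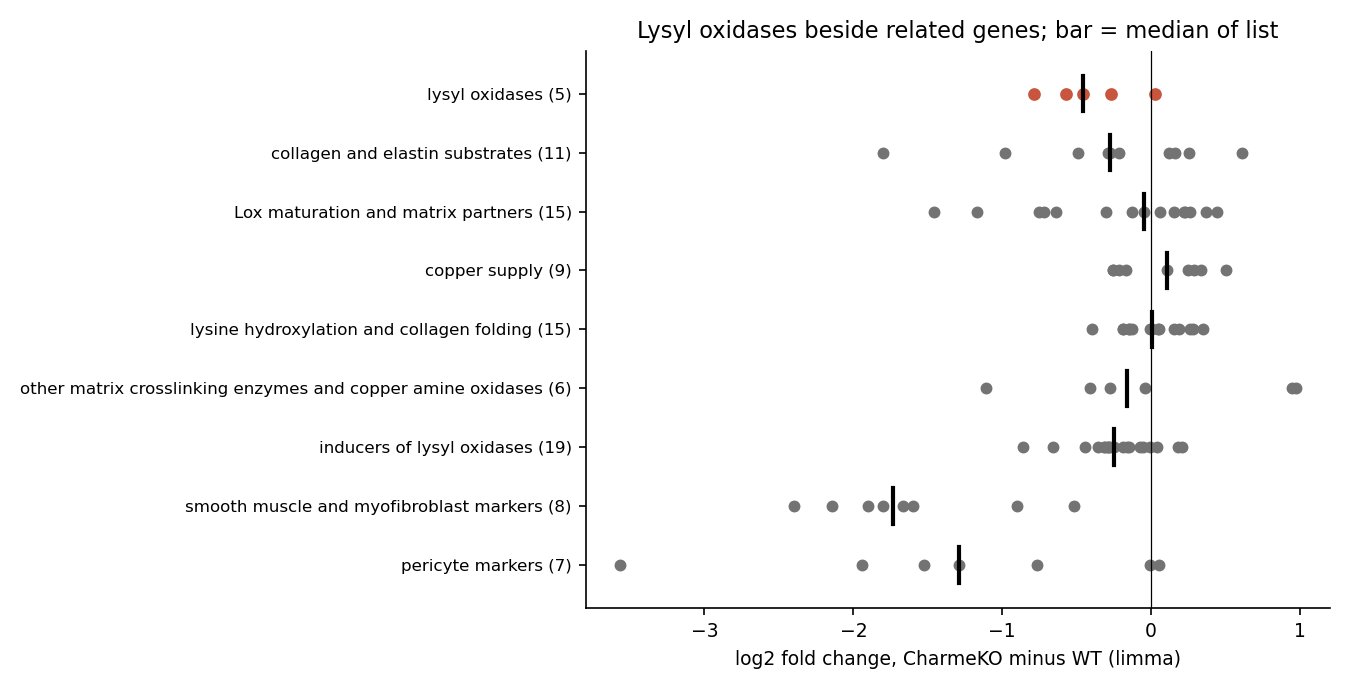
Each point is the limma log2 fold change (CharmeKO minus WT) of a gene, in rows by gene list with the number of genes tested, and the black bar is the median of the row. The lysyl oxidases have a median of -0.46, beside -0.28 for the substrates and -0.25 for the listed possible inducers. Maturation and matrix partners have -0.04, copper supply 0.10, lysine hydroxylation and collagen folding 0.0038, and other crosslinking enzymes and copper amine oxidases -0.16. The smooth muscle and myofibroblast markers have -1.73 and the pericyte markers -1.29, and the median over all genes is 0.0022.

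The members did not share a single pattern over the 6 libraries. As a description over libraries that share genotype and number, the log2 level of *Loxl4* had a Pearson r of 0.799 with *Lox*, 0.780 with *Loxl3* and 0.726 with *Loxl2*, and of -0.344 with *Loxl1*. *Lox* had an r of -0.503 with *Loxl1* and of 0.308 with *Loxl2*. *Loxl1* had an r of 0.290 with *Loxl3* and of -0.154 with *Loxl2*.

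Among the 11583 genes with a mean of at least 100 normalised reads, the patterns most like that of *Lox* over the 6 libraries were *Trpc1* (r = 0.992), *Git1* (r = 0.992) and *Tmem68* (r = 0.991). Those closest to *Loxl1* were *Tmem158* (r = 0.991), the pseudogene *Rpl10-ps3* (r = 0.987) and *Itgb3bp* (r = 0.976), and those closest to *Loxl2* were *Galnt12* (r = 0.997), *Ptov1* (r = 0.990) and *Impdh2* (r = 0.989). *Loxl4* was closest to *Prpf4*, *Osbpl3* and *Zbtb1*, with r of 0.990, 0.990 and 0.989. These are the best of many genes over 6 points and are given as a description, with no p.

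*Loxl3* was closest to *Acbd5* (r = 0.993), *Nes* (r = 0.988) and *Dok1* (r = 0.984). *Dok1*, a docking protein of tyrosine kinase signalling, lies beside *Loxl3* on the opposite strand (chr6:83030934-83033471, GRCm38), with 701 bases between the genes, start to start. It had 1537, 1235 and 2058 normalised reads in WT and 1498, 1122 and 1212 in CharmeKO. As with *Loxl3*, WT 3 was the highest and CharmeKO 2 the lowest library.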

How the data were processed

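RNA was poly(A)-selected and sequenced from cultured CFs, 3 WT and 3 CharmeKO libraries grouped by their titles. According to the methods, the authors aligned reads with STAR to a mouse assembly given as GRCm39, counted them per Ensembl gene on the reverse strand, dropped genes of low read number and applied the DESeq2 normalisation. The Ensembl release that the methods name annotates the preceding assembly, GRCm38, so the build of the alignment is uncertain. Versions of STAR and DESeq2 are not given in the sources used here. The deposited values are thus a normalised read signal. Dividing each column by its smallest positive value gave whole reads for 100% of 116676 values (tolerance 1e-06), with 38330019 to 46797446 reads per library. Counts cover counting error only, as reads are not independent molecules.

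Limma 3.58.1 (R 4.3.3) with a mean-variance trend was run on log2(value + 1), which understates changes of low genes, for 15948 genes (minimum of 10 reads in 2 libraries). Tests were two-sided, with Benjamini-Hochberg adjustment at 0.05. Alternatives were other pseudocounts, filters and scalings, edgeR 4.0.16 and DESeq2 1.42.0 on the recovered reads, the replicate number as a block, and single libraries left out. Leaving out pairs under the block was added after seeing the data. Same-numbered libraries deviated together from their genotype means in all 3 pairs (r above the minimum of 0.1), so the numbers were taken to pair them. WT 2 and CharmeKO 3, of different number, also passed this minimum (r of 0.222). Scripts were tested on simulated data. Members, lists, ratios and the rule for named genes (members, partners, and the 3 lowest p of each list) were chosen with earlier results of these data known. Exon lengths, coordinates and sequences came from GENCODE M21 (GRCm38), matched by Ensembl ID. Figures were drawn with matplotlib 3.10.9 in Python 3.11.15.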

Additional observations from a re-analysis of the deposited data

How the results depend on the processing

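With 3 libraries per genotype no exact test could reach 0.05, and a p above the threshold does not show that the genotypes were alike. The count of genes called at an adjusted p of 0.05, 0 in the main fit, was 8 with DESeq2 and 64 with DESeq2 and the replicate block. Without pairs 1, 2 and 3 the latter was 144, 13 and 89, of which 36, 9 and 32 were among the 64. The replicate block moved *Loxl4* past the threshold in DESeq2 (log2 fold change -0.79, adjusted p = 0.0446) and changed no other call on a member. *Lox* and *Loxl3* kept their sign and stayed uncalled under all 23 alternatives each, with ranges over single libraries left out of -0.89 to -0.15 and -0.91 to -0.21. *Loxl4* kept its sign as well (-1.03 to -0.37). *Loxl1* reversed with single libraries left out (-0.074 to 0.16) and under the block without pairs 1 and 2 (limma -0.032 and -0.084, DESeq2 -0.036 and -0.078). *Loxl2* reversed with edgeR (0.046), DESeq2 (0.035), single libraries left out (-0.93 to 0.44) and the block without pair 2 (limma 0.17, DESeq2 0.17). The *Loxl2* to *Col4a1* ratio also reversed (-0.66 to 0.49 with single libraries left out). The cause was not tested.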
